A study of Mus musculus with 12 samples.

Results

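Enzymes of the tricarboxylic-acid (TCA) cycle were followed through a fast in mouse liver with 21 array probes for 14 genes. Of the 20280 probes used from the array, 8454 had a current gene symbol, for 6564 named genes. The 21 probes were chosen by the file's gene name or, for Idh3b, Ogdh, Dlst and fumarate hydratase, by the number of the array feature. No measured value entered this rule, but the members were chosen with earlier results of these data known. Shares of members and of all probes that were called are therefore only set side by side. Malate dehydrogenase of the cytosol (Mdh1) was left out, whereas the cytosolic enzymes Aco1 and Idh1 were included. Only 6 of the 14 genes (Cs, Aco1, Idh1, Ogdh, Dlst and Suclg1), with 13 probes, were measured by several probes, and the other 8, among them Idh3b and fumarate hydratase (Fh1), by 1 probe each. The files name the 3 probes of Dlst 4930529O08Rik, a RefSeq synonym, and that of Mdh2 Mor1, whereas the probe of Fh1 has no gene name and was identified by its description as similar to fumarate hydratase.

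The animals were male FVB mice that were fasted at 6 weeks of age by withdrawal of chow for 0 (fed), 12, 24 or 72 hours, with 3 arrays per group. All were kept in metabolic cages and, from 24 hours onwards, under an infrared lamp, so that duration of fasting and lamp cannot be told apart at the later time points. Each array carried RNA pooled from 2 livers in Cy3 and a common reference pooled from 6 fed livers in Cy5, without exchange of the dyes. A level is therefore given as the log2 ratio of sample over reference, of which only differences between groups can be read, and a standard deviation (SD) is one between pools and not between mice. In RNA of whole liver, fewer cells of a type and less RNA per cell cannot be told apart.

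The TCA cycle oxidizes the acetyl group of acetyl-CoA, which enters with oxaloacetate as citrate, to carbon dioxide in the mitochondrial matrix and passes the electrons to the respiratory chain. In liver it also takes up the carbon skeletons of amino acids at 2-oxoglutarate, succinyl-CoA, fumarate and oxaloacetate, and delivers malate and oxaloacetate for gluconeogenesis. The steps catalysed by isocitrate dehydrogenase 3 and by the 2-oxoglutarate dehydrogenase complex are irreversible and are regulated by the supply of NAD and by calcium.

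Promoter windows of RefSeq (build GRCm38.p6, 300 bases each, 250 of them before a transcript's start) were available for 13 of the 14 genes, with 19 windows, but not for Idh3a. The upstream part was 46.8% to 74.0% G and C (median 61.2%), against a median of 52.4% over all 32851 windows. Of 4 motifs searched on both strands, the cyclic AMP response element TGACGTCA occurred in windows of Ogdh and Mdh2 (in 1.79% of all windows), and the E-box CACGTG and the NRF1 core GCGCATGC in windows of Ogdh (in 7.15% and 2.71% of all windows, respectively). The estrogen-related receptor site TCAAGGTCA occurred in none of the 19 (in 0.423% of all). The windows of Idh3b, Fh1 and Dlst held none of these strings of letters, from which nothing can be read about binding. The 6 windows of Ogdh overlap in part and belong to different annotated starts. Shown are the parts upstream of the start, 5′ to 3′ on the plus strand and with the motifs in capitals, for 2 windows of Ogdh and for Mdh2, since together they hold an example of each motif found.
Ogdh, chr11:6291347-6291596, with the cyclic AMP response element 51 bases before the start: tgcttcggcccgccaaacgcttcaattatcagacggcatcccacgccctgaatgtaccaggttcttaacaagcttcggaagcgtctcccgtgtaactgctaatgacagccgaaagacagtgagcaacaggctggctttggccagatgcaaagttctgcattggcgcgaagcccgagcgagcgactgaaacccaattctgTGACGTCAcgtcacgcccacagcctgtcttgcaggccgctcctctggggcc
Ogdh, chr11:6292308-6292557, with the E-box 141 and the NRF1 core 15 bases before the start: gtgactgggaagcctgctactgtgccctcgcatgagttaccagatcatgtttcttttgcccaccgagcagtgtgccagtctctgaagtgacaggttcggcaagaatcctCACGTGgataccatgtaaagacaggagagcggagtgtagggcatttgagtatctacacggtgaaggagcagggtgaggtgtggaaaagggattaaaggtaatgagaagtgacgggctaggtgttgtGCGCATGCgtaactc
Mdh2, chr5:135778399-135778648, with the cyclic AMP response element 127 bases before the start: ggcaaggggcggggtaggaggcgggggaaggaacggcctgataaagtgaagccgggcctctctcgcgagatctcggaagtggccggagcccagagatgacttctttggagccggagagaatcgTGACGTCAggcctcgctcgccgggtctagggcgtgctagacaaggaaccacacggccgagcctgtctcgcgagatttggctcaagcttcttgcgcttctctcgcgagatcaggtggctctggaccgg

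In the sample channel, all 21 probes exceeded background clearly (by the scanner's own test) on each of the 12 arrays, none was saturated, and all could be tested in every comparison. The arrays themselves were unequal. Sample signal over local background had a median of 7.59 to 10.1 on the fed arrays and 9.44 to 10.6 at 72 hours, but 4.72 on replicate 2 of 12 hours and 3.50 on replicate 3 of 24 hours, which are called the low-signal arrays here. They did not stand far apart, since the other arrays gave 5.34 and 8.28 at 12 hours and 6.07 and 5.85 at 24 hours, and 3 of these 4 were also below every fed array. The images were quantified on 3 days, with fed replicate 1 and both low-signal arrays on the first, the other fed and all 72-hour arrays on the second, and the remaining 12- and 24-hour arrays on the third. Results are therefore given over all 12 arrays and over the 10 without the low-signal arrays.

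Hepatocyte markers were present: the 4 of 12 listed genes with a probe (Apoa1, Ass1, Trf and Ttr) were well above background on all arrays, and their summed normalized sample signal was 173300 to 179800 in fed liver, 140200 to 174600 at 12 hours, 147500 to 161800 at 24 hours and 105800 to 143100 at 72 hours. Of the lists for other cells, 4 of 10 genes of macrophages and leukocytes, 3 of 10 of endothelial and stellate cells, 2 of 5 of erythroid cells, 1 of 5 of pancreatic acini, 2 of 4 of skeletal muscle and 1 of 4 of adipocytes had a probe. The sum for skeletal muscle was 965 to 1459 in fed liver, 1288 to 3527 at 12 hours, 1131 to 1906 at 24 hours and 1102 to 1228 at 72 hours. For the pancreatic gene Cpa1 the sum was 384 to 642, 497 to 1813, 238 to 644 and 548 to 586, respectively. For erythroid cells it was 7300 to 22120 in fed and 6851 to 18260 in fasted liver, for macrophages and leukocytes 4844 to 7197 and 2976 to 6555, for endothelial and stellate cells 790 to 1109 and 635 to 1048, and for adipocytes 210 to 248 and 197 to 349. Their part in the results was not tested. None of the marker probes passed the threshold over 12 arrays at 12, 24 or 72 hours. Without the low-signal arrays 1 did, that of the hepatocyte gene Ttr, which fell 2.55-fold at 72 hours (adjusted p = 0.0418 in limma). In the same fit at 12 hours, Cpa1 had a log2 fold change of 1.202 (adjusted p = 0.144), the 2 erythroid probes a median of -0.61 and the 2 muscle probes a median of -0.32.

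Over all 12 arrays, none of the TCA-cycle probes passed the test during fasting. With limma, 0 of 21 passed an adjusted p of 0.05 (Benjamini-Hochberg, over all probes tested) together with a 1.4-fold change at 12 and 24 hours (0.00497% of all probes at each) and 0 at 72 hours (0.00996%). The same held between 12 and 24 hours and between 24 and 72 hours (0% of all probes at each) and for all fasted arrays against fed (0.00996%). No member had an adjusted p below 0.956 at 12 hours or below 1.00 at the later times. At an unadjusted threshold of 0.05 in limma, 0 members passed at 12 hours (3.92% of all probes), 0 at 24 hours (3.04%) and 1, Idh1, at 72 hours (1.55%). Between 12 and 24 hours 1 passed, again Idh1 (0.945% of all), between 24 and 72 hours none (3.42%), and for all fasted arrays against fed none (2.53%). The probe of Idh1 that passed between 12 and 24 hours, feature 16132, was 1.71 and -0.21 on the low-signal arrays of these times. Between the remaining arrays its log2 difference was -0.12. The median log2 fold change of the 21 probes came to 0.04, 0.09 and 0.06 for these 3 time points, beside -0.0056, -0.0022 and -0.014 over all probes.

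Over the 10 remaining arrays, probes of 5 genes rose and a probe of 1 gene fell. In this fit 12 and 24 hours had 2 arrays each, all quantified on the third day, which held no fed array. Day and fasting therefore cannot be told apart at these 2 times. Idh3b and 1 probe of Ogdh rose at 12 hours, which was 2 of 21 members against 1.7% of all probes called as higher. At 24 hours these were joined by Idh3g, 1 probe of Dlst and Fh1, which made 5 of 21 against 5.21%. At 72 hours no member rose (0.686% of all probes did) and 1 probe of Idh1 fell, which was 1 of 21 against 0.149% of all probes called as lower. For the fasted arrays together, Idh3b, Ogdh, Dlst and Fh1 rose (4 of 21, against 3.54% of all probes). The median log2 fold change of the members was -0.06, 0.17 and 0.06, beside -0.029, -0.012 and -0.014 over all probes.

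**Figure D1:**
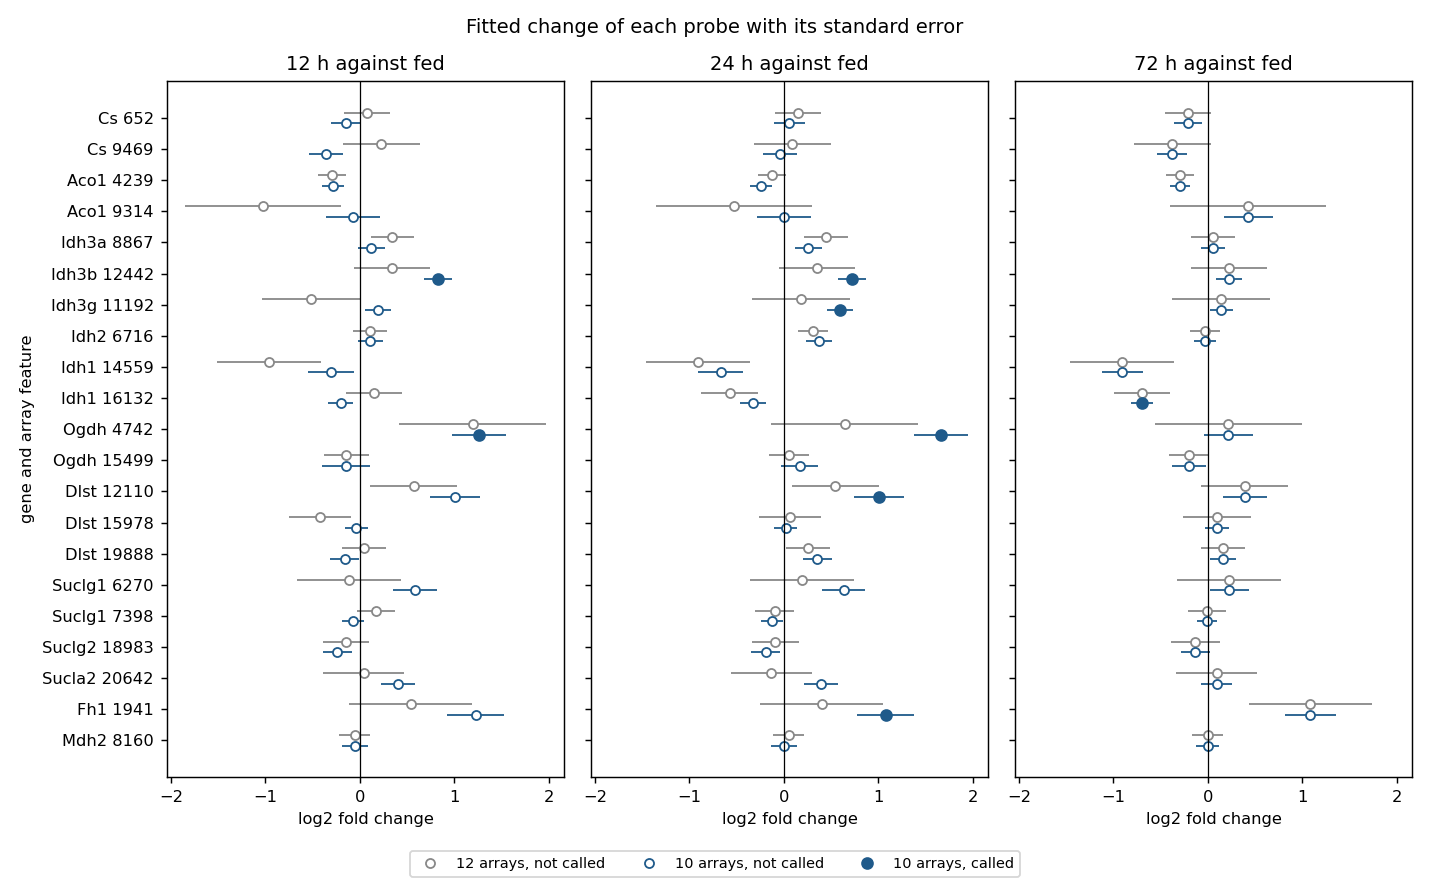
Fitted log2 fold change of each of the 21 probes against fed at each time point (points) with its standard error (bars), over all 12 arrays (grey) and over the 10 without the low-signal arrays (blue, filled where called). No grey point is called, and the called blue points are 2 at 12 hours, 5 at 24 hours and 1 at 72 hours.

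Citrate synthase (Cs), which condenses acetyl-CoA with oxaloacetate, did not pass the test at any time point. Both probes had fed log2 ratios between -0.16 and 0.19. At 72 hours the values were -0.28, -0.56 and -0.51 for feature 9469 and -0.05, -0.04 and -0.11 for feature 652, all below the fed values of the same probe. Without the low-signal arrays the change at 72 hours was -0.38 ± 0.16 (SE) for feature 9469 (adjusted p = 0.344 in limma) and -0.21 ± 0.15 for feature 652 (adjusted p = 0.617). At 12 hours feature 9469 was also below its fed values on replicates 1 and 3 (-0.62 and -0.24), but high on the low-signal array, at 1.32.

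Aco1, the aconitase of the cytosol, isomerizes citrate to isocitrate and, without its iron-sulphur cluster, is the iron-regulatory protein 1. Neither probe of Aco1 passed. Feature 4239 was -0.33, -0.07 and -0.11 in fed liver and between -0.58 and -0.37 on the fasted arrays without the low-signal arrays (adjusted p = 0.0746 for all fasted against fed over the 10 arrays). The other, feature 9314, dropped to -2.43 and -1.06 on the low-signal arrays and reached 1.58 on replicate 2 of 72 hours.

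**Figure D2:**
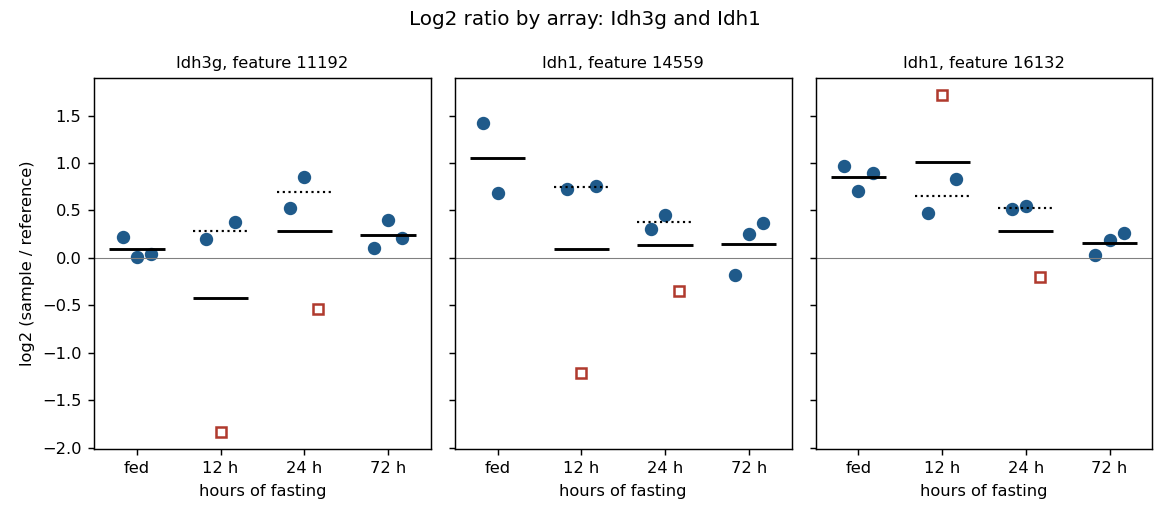
Log2 ratio of sample over reference on each array for Idh3g and both Idh1 probes in fed liver and at the 3 times of fasting. Red open squares are the low-signal arrays, solid lines are group means and dotted lines group means without the low-signal arrays; the remaining 24-hour values of Idh3g lie above all fed values, and the 72-hour values of Idh1 below all fed values.

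Isocitrate dehydrogenase 3 is the NAD-dependent enzyme of the cycle and consists of catalytic alpha and regulatory beta and gamma subunits. Idh3b, the beta subunit, had log2 ratios of 0.34, 0.18 and -0.004 in fed liver, 1.09, -0.46 and 0.90 at 12 hours, 0.93, 0.85 and -0.22 at 24 hours, and 0.14, 0.51 and 0.54 at 72 hours. The 12- and 24-hour arrays other than the low-signal arrays were above all fed arrays, the low-signal arrays below all of them, and the 72-hour arrays overlapped with the fed ones. Over 12 arrays the change was 0.34 ± 0.40 at 12 hours, 0.35 ± 0.40 at 24 hours and 0.22 ± 0.40 (SE) at 72 hours. In the fit to 10 arrays, Idh3b rose 1.77-fold at 12 hours (adjusted p = 0.0264) and 1.64-fold at 24 hours (adjusted p = 0.0194), but not at 72 hours (1.17-fold, adjusted p = 0.526). Each of the 2 calls was lost when fed replicate 2, fed replicate 3 or either array of the fasted group was left out as well. From the sample channel alone, over all 12 arrays, Idh3b was lower than in fed liver at 12 and 72 hours (log2 fold change -0.26 and -0.29), opposite to the ratio. At 12 hours its log2 normalized sample signal was 10.20 on the low-signal array, beside 11.07 and 11.06 on the others. Without the low-signal arrays, its mean log2 normalized sample signal was 11.03 in fed liver and 11.07 at 12 hours, while that of the common reference was 10.86 and 10.07, so that the called difference at 12 hours lay in the reference channel. At 24 hours the sample means were 11.03 and 11.75 and the reference means 10.86 and 10.86.

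Idh3g, the gamma subunit, was 0.22, 0.01 and 0.05 in fed liver, 0.20, -1.84 and 0.37 at 12 hours, 0.53, 0.86 and -0.54 at 24 hours, and 0.10, 0.40 and 0.21 at 72 hours. It rose 1.51-fold at 24 hours over the 10 arrays (adjusted p = 0.0261) and lost this call without fed replicate 2 or 3 or replicate 2 of 24 hours. On these arrays its mean log2 normalized sample signal was 10.52 in fed liver and 10.74 at 24 hours. That of the common reference was 10.43 and 10.05, so that the larger part of the called difference lay in the reference channel. At 12 hours the change was -0.51 over 12 arrays and 0.19 over 10, so that the low-signal array set its sign. Idh3a, the alpha subunit, was between -0.32 and -0.02 in fed liver, and its highest values, 0.66 and 0.68, were on the low-signal arrays, opposite to the other subunits. Over the 12 or the 10 arrays it did not pass (0.44 ± 0.23 at 24 hours over 12 arrays, 0.26 ± 0.14 over 10, adjusted p = 1.00 and 0.238).

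The NADP-dependent isocitrate dehydrogenases, Idh2 in the mitochondrion and Idh1 in the cytosol, supply NADPH. Idh2 varied little: without its missing value, its log2 ratios lay between -0.12 and 0.14 except on replicate 2 of 24 hours (0.58). A probe of Idh1 was the only member probe that fell against fed liver, at 72 hours and over the 10 arrays. This probe, feature 16132, was 0.97, 0.71 and 0.89 in fed liver, 0.48, 1.71 and 0.83 at 12 hours, 0.51, 0.55 and -0.21 at 24 hours, and 0.03, 0.19 and 0.26 at 72 hours, where all values were below those of fed liver. Feature 14559 was 1.42 and 0.68 in fed liver (1 spot was marked as an outlier), 0.73, -1.21 and 0.76 at 12 hours, 0.31, 0.45 and -0.35 at 24 hours, and -0.18, 0.25 and 0.37 at 72 hours. The log2 fold change at 72 hours was -0.70 ± 0.30 and -0.91 ± 0.55 (SE), respectively, over 12 arrays. Over the 10 arrays it was -0.70 ± 0.12 and -0.91 ± 0.22, and feature 16132 fell 1.62-fold (adjusted p = 0.0313) whereas feature 14559 did not pass (1.87-fold, adjusted p = 0.0975). The call was lost when any fed array or replicate 2 of 72 hours was left out. Within the second day of quantification, which held 2 fed and all 72-hour arrays, the difference was -0.64 for feature 16132 and -0.54 for feature 14559 (adjusted p = 0.198 and 0.408 in limma).

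The 2-oxoglutarate dehydrogenase complex converts 2-oxoglutarate to succinyl-CoA, with Ogdh as the E1 component that decarboxylates it and Dlst as the E2 component that transfers the succinyl group. Feature 4742 of Ogdh had a log2 ratio of 1.36 and 0.77 in fed liver (1 spot was marked as an outlier), 2.17, 2.13 and 2.47 at 12 hours, 2.46, 2.99 and -0.33 at 24 hours, and 0.84, 1.63 and 1.36 at 72 hours. All 3 arrays of 12 hours, the low-signal array included, were above the fed arrays, at 24 hours the low-signal array was the lowest of all, and at 72 hours the groups overlapped. Feature 15499 was 0.61, -0.09 and 0.15 in fed liver, 0.08 and 0.09 at 12 hours, 0.17, 0.62 and 0.06 at 24 hours, and 0.02, 0.06 and -0.01 at 72 hours, within the fed range on all but 1 array. For feature 4742 the change over 12 arrays was 1.19 ± 0.78 at 12 hours (adjusted p = 0.956), 0.64 ± 0.78 at 24 hours and 0.21 ± 0.78 (SE) at 72 hours.

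Over the 10 arrays feature 4742 rose 2.39-fold at 12 hours (adjusted p = 0.0493) and 3.17-fold at 24 hours (adjusted p = 0.0130) and then fell 2.73-fold between 24 and 72 hours (adjusted p = 0.0392), which was 1 of 21 members against 0.91% of all probes called as lower. Feature 15499 did not pass (1.11-fold lower and 1.12-fold higher, adjusted p = 0.779 and 0.600). The call at 24 hours was lost without fed replicate 2 or replicate 2 of 24 hours, that at 12 hours without any of 5 of the arrays. The reference signal of feature 4742 had log2 normalized values from 7.31 to 7.92 (SD 0.22), whereas the sample signal ran from 6.97 to 10.9 (SD 1.07). For Idh3b, Dlst 12110 and Fh1 the common reference varied more over the 12 arrays, with an SD of 0.40, 0.44 and 0.45, respectively. The SD in the sample channel was 0.54, 0.71 and 0.65. For the other called probes, Idh3g and Idh1 16132, the reference varied as little as for Ogdh 4742 (SD 0.22 for each). The reference signal of feature 4742 was in the range of dim members such as Suclg1 7398 (7.09 to 7.81, SD 0.20).

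Of the 3 probes of Dlst, only feature 12110 passed, at 24 hours over the 10 arrays. Its log2 ratio was 0.85, 0.38 and -0.01 in fed liver, 1.69, 0.10 and 1.16 at 12 hours, 1.397, 1.43 and 0.04 at 24 hours, and 0.45, 1.195 and 0.76 at 72 hours. The 12- and 24-hour arrays other than the low-signal arrays were above the fed arrays, and both low-signal arrays were within their range. The change over 12 arrays was 0.57 ± 0.46, 0.54 ± 0.46 and 0.39 ± 0.46 (SE). Over the 10 arrays it was 2.00-fold at 24 hours (adjusted p = 0.0392) and 2.01-fold at 12 hours, which did not pass (adjusted p = 0.0664). The call was lost without fed replicate 2 or 3, either 24-hour array or replicate 3 of 72 hours. The other probes of Dlst lay closer to fed liver: feature 15978 was -0.16 and -0.10 there and between -0.19 and 0.07 on the fasted arrays other than replicate 2 of 12 hours (-1.32), and feature 19888 was 0.30 and 0.34 in fed liver and 0.06 to 0.76 on the fasted arrays.

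**Figure D3:**
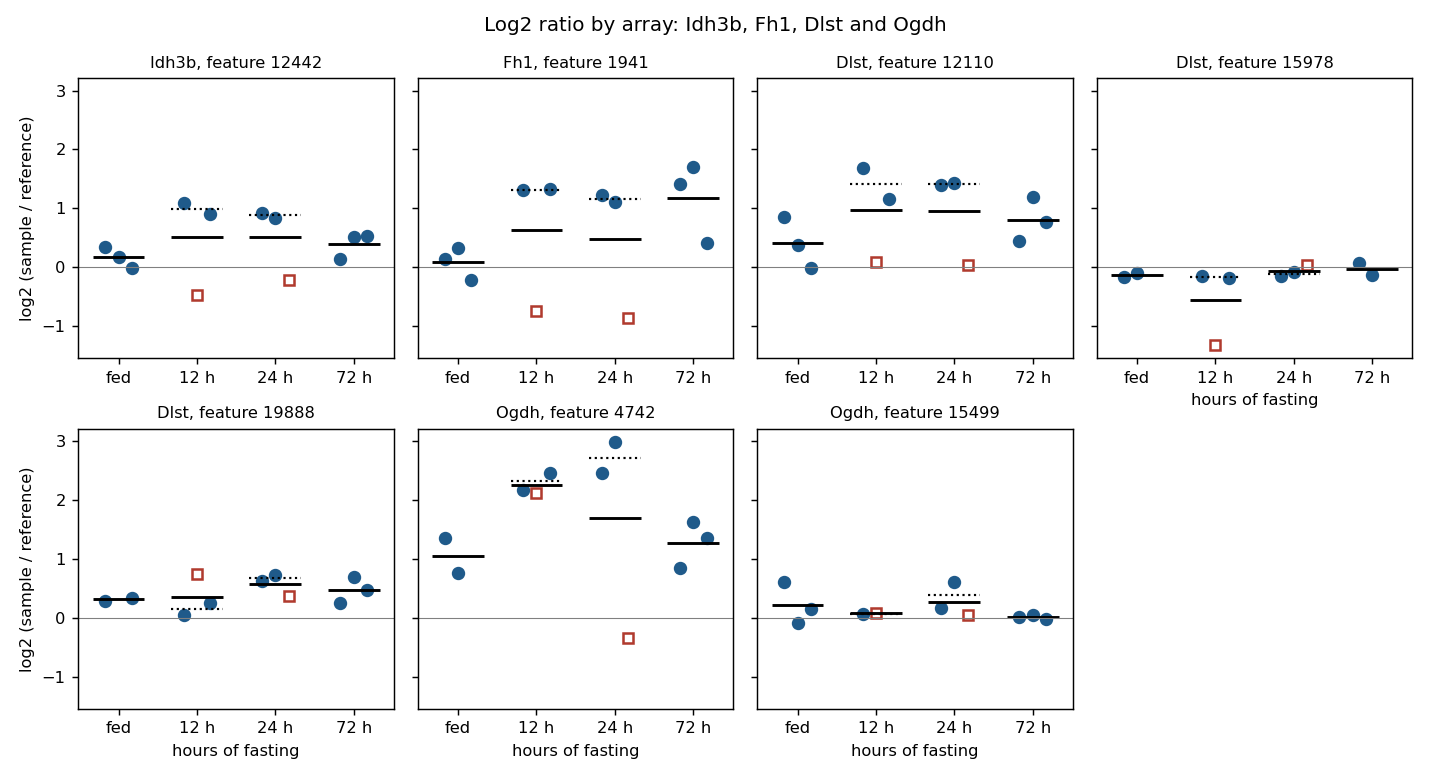
Log2 ratio of sample over reference on each array for the probes of Idh3b, Fh1, Dlst and Ogdh in fed liver and at the 3 times of fasting. Red open squares are the low-signal arrays, solid lines are group means and dotted lines group means without the low-signal arrays; the other arrays of 12 and 24 hours lie above the fed ones for Idh3b, Fh1, Dlst 12110 and Ogdh 4742, but not for Dlst 15978 and Ogdh 15499.

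Whether probes of the same gene had moved unequally was asked from their difference within each array, taken as brighter minus dimmer probe, in fed against fasted liver. For Ogdh this difference was -0.74 and -0.85 in fed liver, -2.09 and -2.04 at 12 hours, -2.30, -2.37 and 0.39 at 24 hours, and -0.82, -1.57 and -1.37 at 72 hours. Fasted minus fed liver, the means differed by -0.72, which did not pass (p = 0.311, exact two-sided permutation test, smallest possible p 0.0222; adjusted p = 0.945 over the 8 pairs). Without the low-signal arrays they differed by -0.96 (p = 0.143, exact permutation test; adjusted p = 0.311). For Suclg1, the only gene with values of both probes on all arrays, the difference was higher by 0.08 over all arrays (p = 0.909, exact permutation test) and by 0.51 without the low-signal arrays (p = 0.1, exact permutation test; adjusted p = 0.311). None of the 8 pairs passed, with or without the low-signal arrays, also at an unadjusted p of 0.05. This says little, since the exact permutation test could not give a p below 0.0182 for any pair but Suclg1 over all arrays, or below 0.0278 without the low-signal arrays, and no pair on its own could have reached an adjusted p of 0.05 without them. For the pair of Dlst 15978 and 19888, with a single fed value, the limits were 0.111 and 0.143. Over the arrays, the log2 ratios of both probes correlated with r = 0.89 for Cs (11 arrays), 0.46 for Ogdh (10 arrays), -0.11 for Idh1 (11 arrays), -0.23 for Aco1 (11 arrays) and -0.80 for Suclg1 (12 arrays), and for the Dlst pairs with r between -0.45 and 0.32. These values share the reference, the days of quantification and the low-signal arrays.

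**Figure D4:**
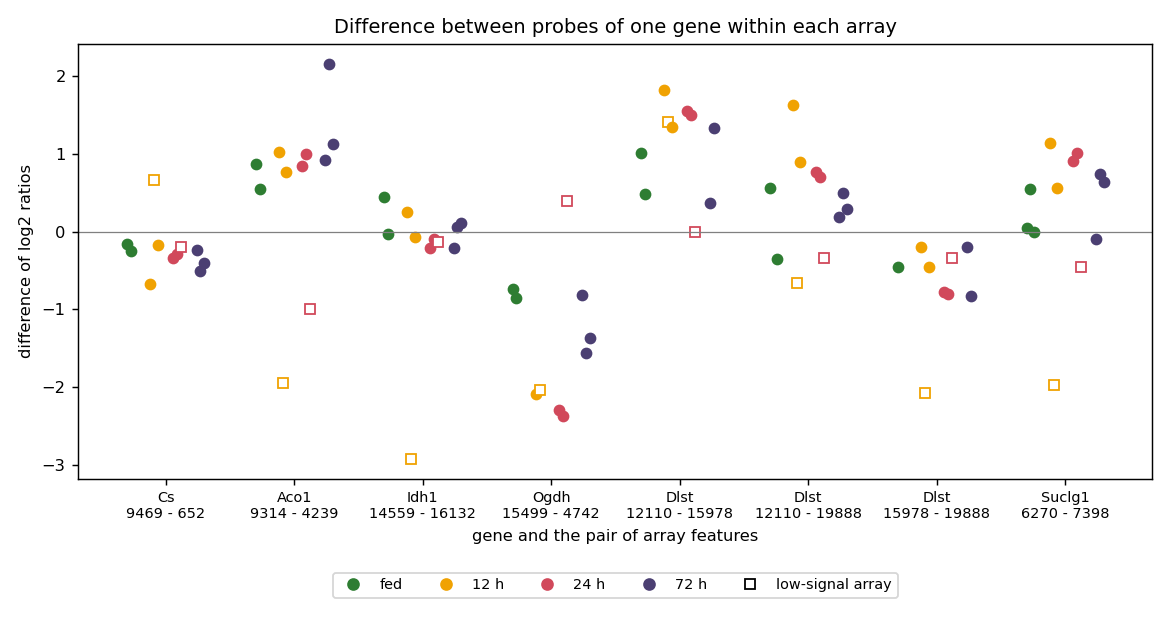
Difference of the log2 ratios of 2 probes of one gene within each array, brighter minus dimmer, for the 8 pairs of 6 genes (points are arrays, coloured by hours of fasting; open squares are low-signal arrays). The low-signal array of 12 hours lies apart from the other arrays for Cs, Aco1, Idh1, Suclg1 and 1 pair of Dlst, and the Ogdh difference is -2.37 to -2.04 on the 12- and 24-hour arrays with a value, except the low-signal array of 24 hours.

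Succinyl-CoA ligase releases CoA from succinyl-CoA and forms ATP or GTP, depending on whether the shared alpha subunit (Suclg1) is paired with Sucla2 or Suclg2. None of its 4 probes passed over the 12 or the 10 arrays. Feature 6270 of Suclg1 was 0.17, 0.41 and -0.15 in fed liver, 0.95, -1.36 and 0.50 at 12 hours, 0.72, 0.83 and -0.55 at 24 hours, and -0.10, 0.60 and 0.60 at 72 hours, with the 12- and 24-hour arrays other than the low-signal arrays above the fed ones (1.55-fold at 24 hours over the 10 arrays, adjusted p = 0.0973). Feature 7398 of the same gene stayed between -0.20 and 0.12 except for 0.62 on the low-signal array of 12 hours. Sucla2 was 0.61, 0.44 and 0.22 in fed liver, 0.66 to 0.96 on the 12- and 24-hour arrays other than the low-signal arrays and -0.26 and -0.76 on the low-signal arrays (1.31-fold at 24 hours over the 10 arrays, adjusted p = 0.173). Suclg2 had a single fed value, 0.05, and lay between -0.22 and 0.17 in fasted liver.

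Fumarate hydratase (Fh1) converts fumarate, which also arises from the urea cycle and from the breakdown of tyrosine and phenylalanine, to malate. Its log2 ratio was 0.15, 0.33 and -0.21 in fed liver, 1.31, -0.74 and 1.33 at 12 hours, 1.22, 1.11 and -0.87 at 24 hours, and 1.42, 1.70 and 0.41 at 72 hours. Apart from the low-signal arrays, which were both below the fed arrays, the 7 fasted arrays were all above them. Over 12 arrays the change was 0.54 ± 0.65, 0.40 ± 0.65 and 1.09 ± 0.65 (SE) at 12, 24 and 72 hours. Over the 10 arrays Fh1 rose 2.11-fold at 24 hours (adjusted p = 0.0476), with 2.34-fold at 12 hours (adjusted p = 0.0570) and 2.12-fold at 72 hours (adjusted p = 0.0975) not passing. The call at 24 hours remained in 3 of 10 fits that left out 1 more array, and was lost without any of the fed, 12-hour or 24-hour arrays. Over the 10 arrays, mean log2 normalized sample signals of Fh1 were 10.51 in fed liver and 11.33 at 24 hours. Those of the common reference were 10.42 and 10.17, so that a part of the called difference lay in the reference channel. Within the second day of quantification, Fh1 was 1.11 higher at 72 hours than in the fed arrays (log2, adjusted p = 0.295), and on the first day the low-signal arrays minus fed replicate 1 gave -0.89 and -1.01. Mdh2, which oxidizes malate to oxaloacetate, did not pass the test, with log2 ratios of 0.06 and 0.12 in fed liver and -0.04 to 0.26 in fasted liver.

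**Figure D5:**
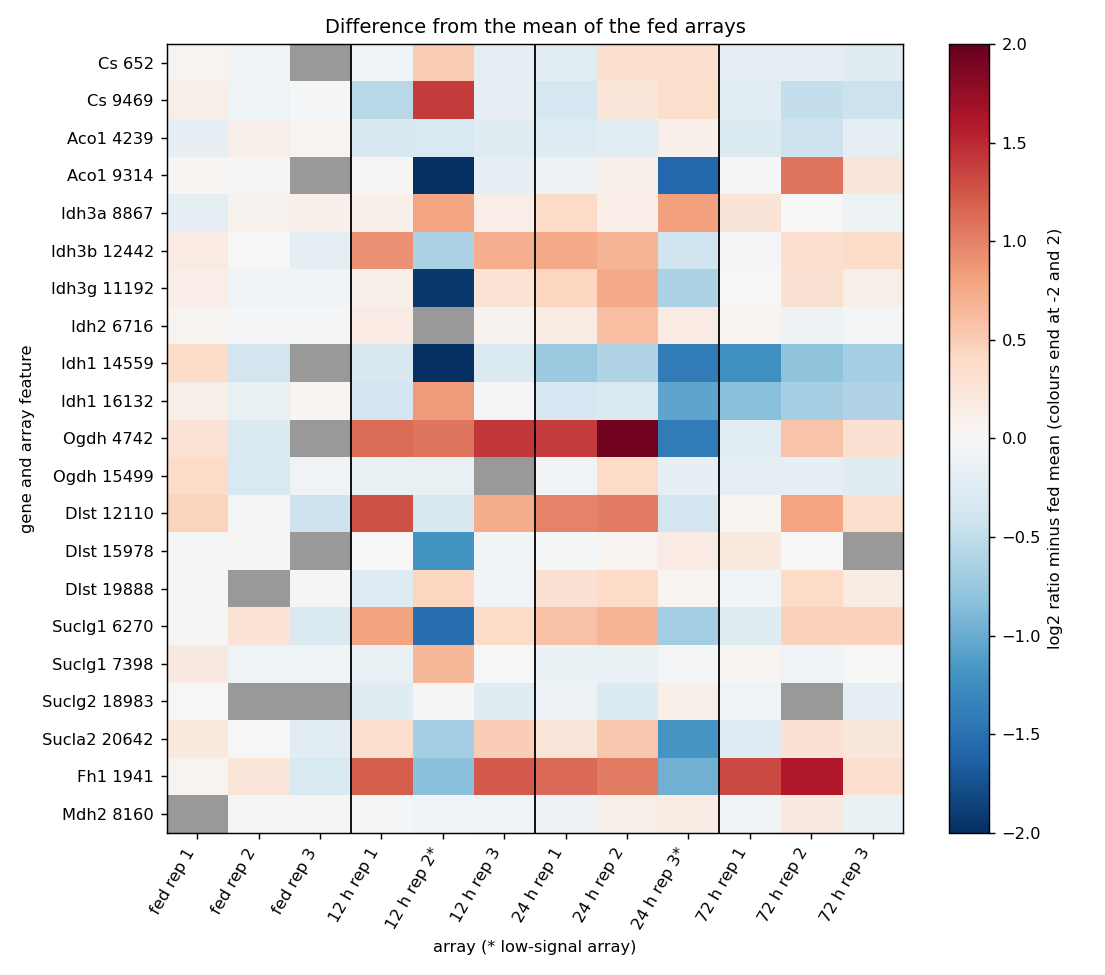
Log2 ratio of each of the 21 probes on each of the 12 arrays minus the mean of the fed arrays for that probe (red higher, blue lower, grey a spot marked as an outlier; asterisks mark the low-signal arrays). The low-signal arrays are of the opposite colour to the other 12- and 24-hour arrays for Idh3b, Dlst 12110, Suclg1 6270, Sucla2 and Fh1, and Idh1 is blue on all 72-hour arrays.

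The result thus depended on how the 2 low-signal arrays and the day of quantification were treated. Array weights in limma follow how closely each array fitted the mean of its group. They were 0.037 and 0.099 for the low-signal arrays and 0.544 to 7.11 for the others. The fit with these weights is therefore no separate check of the fit to 10 arrays. With them, 4 of 21 members passed at 12 hours (9.52% of all probes), 5 at 24 hours (10.5%) and 2 at 72 hours (4.04%). Those were Idh3b, Ogdh 4742, Dlst 12110 and Fh1 at 12 hours, the same probes and Idh3g at 24 hours, and Fh1 and, as the only one lower, Idh1 16132 at 72 hours. With the day of quantification as a block, 6 members passed at 12 hours (23.2% of all probes), 5 at 24 hours (12%) and 0 at 72 hours (0.0598%). Apart from Idh3g, other probes were involved. Idh3g was called at 24 hours as higher with array weights and as lower with the day block. Aco1 9314, Idh3g, Idh1 14559 and Sucla2 were then lower at 12 and 24 hours, Suclg1 6270 was lower at 12 hours, and Idh3a was higher at both. Since the third day held no fed array, that fit compares 12- and 24-hour liver with fed liver only through fed replicate 1 and the low-signal arrays of the first day. Within that day, 8 of 19 members with a value were higher than fed replicate 1 on the 12-hour array and 8 of 20 on the 24-hour array, and within the second day 11 of 20 were higher at 72 hours than in fed liver. The probes called as higher over the 10 arrays at 12 or 24 hours (Idh3b, Ogdh 4742, Dlst 12110, Fh1 and Idh3g) had log2 fold changes between -1.06 and -0.18 at that time in the fit with the day block, the opposite direction. For 12 and 24 hours, the effects of day, low signal and fasting cannot be told apart.

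For the leading (brightest) probes of Idh3b, Ogdh, Dlst and Fh1, the probes with the most similar log2 ratios over the arrays were sought. The candidates were 5352 named probes outside the list of members with a value on all arrays (5375 on the 11 arrays of the Ogdh probe). For Idh3b the most similar were Mttp (r = 0.98), Socs3 (0.97) and F5 (0.97), and for Dlst Afg3l1 (0.97), MGC38208 (0.96) and Srpr (0.96). For Fh1 they were Mapk6 (0.97), Rbpms (0.97) and Slc25a15, the mitochondrial ornithine carrier (0.97). For Ogdh 15499 they were MGC27660 (0.89), Abcd3 (0.86) and Rrbp1 (0.83). Without the low-signal arrays r was 0.88 to 0.98 for these 12 probes. Among the leading probes of the cycle, Idh3b correlated with Dlst (r = 0.94 over 12 and 0.95 over 10 arrays) and Suclg1 (0.92 and 0.88), but less with Ogdh 15499 (0.27 and 0.21). All these values share the reference, the arrays and their days.

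Neighbouring enzymes were looked at as a list of 28 genes, of which 20 had a probe, 22 probes in all. The list held succinate dehydrogenase and Dld, which are part of the cycle itself. It also held the pyruvate dehydrogenase complex with its kinases and phosphatases, malic enzymes, carriers and others. Of the 21 probes that could be tested, 0 passed in either direction at 12, 24 or 72 hours over 12 arrays, also at an unadjusted p of 0.05, and their median log2 fold change was -0.20, -0.11 and 0.01. Over the 10 arrays these medians were 0.10, 0.05 and 0.01. In the comparison of all fasted with fed liver over 12 arrays, the 3 smallest p belonged to ATP-citrate lyase (Acly), which cleaves exported citrate in the cytosol (-0.79 ± 0.43 (SE), adjusted p = 1.00 in limma), Dlat, the E2 component of pyruvate dehydrogenase (0.12 ± 0.12), and Sdhb, the iron-sulphur subunit of succinate dehydrogenase (-0.53 ± 0.62). Over the 10 arrays the changes of Acly, Dlat and Sdhb were -0.43, 0.15 and -0.13, and none was called. On the 10 arrays, 1 probe of Pdha1, the E1 alpha subunit of pyruvate dehydrogenase, rose 1.85-fold at 24 hours (adjusted p = 0.0145) and 1.78-fold at 72 hours (adjusted p = 0.0345), 1 of 21 neighbour probes beside 5.21% and 0.686% of all probes called as higher. This probe, feature 15960, was 0.14, 0.17 and -0.15 in fed liver and 0.59 to 1.16 on the 7 other fasted arrays, but -1.95 and -0.81 on the low-signal arrays, so that its change at 12 hours was -0.25 over 12 arrays. The other probe of Pdha1 did not pass (1.51-fold at 24 hours, adjusted p = 0.0978). Mdh1 of the malate-aspartate shuttle differed by 0.12 ± 0.46 (SE) for all fasted against fed over 12 arrays and did not pass.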

How the data were processed

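Deposited were scanner files of 2-colour arrays from Agilent's Feature Extraction software, with unnormalized intensities of each spot and its local background. They also give the software's own log10 ratio of reference over sample, and the deposited value table repeats that log10 ratio with its sign turned. The scale and direction were checked per feature on every array, and the table was used for nothing else. The authors subtracted background from median signals, applied quantile normalization and used analysis of variance on the channels, which was not repeated. Here, after 1075 control and 91 retired spots had been left out of 21446, median intensities were background-corrected with normexp (offset 50), quantile-normalized over 24 channels and expressed as log2 ratios. Spots marked as outliers were missing (up to 24.8% of probes, on fed replicate 2). Groups came from the deposited titles. limma version 3.58.1 (R version 4.3.3) was fitted to all probes that the scanner marked as well above background (sample channel, every array of at least 1 group), with 4 groups and 1 spread per probe. Called means an adjusted p under 0.05 over all probes and a change of 1.4-fold or more. Precision is limited by the number of arrays, and p-values measure the spread between pools of 2 livers.

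One gene that the rule selects is not reported here and is left out of all counts of members; all other member probes are named; the leading probe of a gene is the brightest in fed liver, and neighbours are named where called or otherwise by the 3 smallest p. Members, gene lists, motifs, tests and the low-signal arrays were chosen with earlier results of these data known. Alternatives were background subtraction, loess, the scanner's log ratio, the sample channel alone, no filter, outliers kept, array weights, day or replicate block, and leaving out arrays. Deviations of arrays with the same replicate number from their group means correlated with r from -0.645 to 0.631 (over 0.1 in 6 of 18 pairs, median -0.16). With 3 arrays per group this check cannot exclude a pairing, and the main fit used none. The procedure was tested on simulated data with independent noise for each probe and array, so that this test says nothing about effects of array or day. Probe sequences were not used here.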

Additional observations from a re-analysis of the deposited data

Results flagged for a closer look

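The effects of 24 and of 72 hours of fasting differed for 1 member in a test of the difference itself. Without the low-signal arrays, the dimmer probe of Ogdh (feature 4742) was lower at 72 than at 24 hours by a log2 fold change of -1.45 ± 0.26 (SE; adjusted p = 0.0392 in limma), with log2 ratios of 2.46 and 2.99 on 2 arrays of 24 hours and 0.84, 1.63 and 1.36 on 3 of 72 hours. Over all 12 arrays it was -0.43 and was not called (adjusted p = 1.00), with the day of quantification as a block it was 1.24 (adjusted p = 0.486), and for the other probe of Ogdh it was -0.37 without the low-signal arrays (adjusted p = 0.292). The 24-hour arrays in this comparison were quantified on another day than the 72-hour arrays, so that day and time of fasting cannot be told apart.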

How the results depend on the processing

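Over 12 arrays, no member passed in any of the 6 comparisons with background subtraction, loess within array, the scanner's log ratio, the sample channel alone, no filter on dim probes, spots marked as outliers kept, the replicate block (0 in each comparison) or any 1 array left out (0 to 0). Members passing at 12, 24 and 72 hours were 2, 5 and 1 without both low-signal arrays, 4, 5 and 2 with array weights, and 6, 5 and 0 with the day block. With these 3 settings, 1, 1 and 3 passed between 24 and 72 hours, and for all fasted against fed 4, 4 and 5. When both low-signal arrays and 1 more array were left out, a choice made after seeing the data, 0 to 3, 0 to 6 and 0 to 2 passed. The median log2 fold change of the members became -0.176 at 72 hours in the sample channel alone and 0.142 with the scanner's log ratio, and -0.183 at 12 and -0.458 at 24 hours with the day block. With 1 array left out it was -0.031 to 0.075 at 72 hours, the lowest value without fed replicate 2.

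Signs turned as follows (log2 fold change against fed; the cause was not tested). With the day block, the values at 12 and 24 hours were -0.691 and -0.68 for Idh3b, -0.775 and -0.799 for Dlst 12110, -0.881 and -1.022 for Fh1, and -0.183 and -0.734 for Ogdh 4742. At 24 hours Idh3g was -1.062 and Ogdh 15499 -0.458. In the sample channel alone, Idh3b was -0.255 at 12 and -0.285 at 72 hours, Idh1 16132 -0.05 at 12 hours and Ogdh 15499 -0.077 at 24 hours. Idh1 16132 at 12 hours was -0.091 with loess, -0.127 with array weights and -0.205 without both low-signal arrays. Array weights gave 0.083 at 12 and 0.032 at 72 hours for Ogdh 15499 and 0.223 at 12 hours for Idh3g, which was 0.192 without both low-signal arrays. With 1 array left out, the range at 12 hours was -0.299 to 0.05 for Ogdh 15499, -0.912 to 0.192 for Idh3g and -0.205 to 0.414 for Idh1 16132. At 24 hours it was -0.114 to 0.249 for Ogdh 15499 and -0.102 to 0.597 for Idh3g, and at 72 hours -0.078 to 0.507 for Ogdh 4742.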
